A study of Mus musculus with 9 samples.

Results

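The genes described here are 9 G protein-coupled receptors that guide or tune the traffic of B cells, namely the chemokine receptors Cxcr5, Ccr7, Cxcr4 and Ccr6, the oxysterol receptor Gpr183, the sphingosine-1-phosphate receptors S1pr1 and S1pr4, the cannabinoid receptor Cnr2 and the lysophosphatidylserine receptor P2ry10. They were chosen by name, and their rows were found through the NCBI Gene number of each symbol, which gave 9 of the 27179 gene rows. The values come from RNA immunoprecipitation sequencing of mouse splenic B cells, in which RNA that came down with phosphorylated UPF1 (p-UPF1) was sequenced beside RNA that came down with normal rabbit IgG and beside RNA of the lysate (Input). There were 3 libraries in each of these groups, named A, B and C here. All of them came from wild type mice and from spleen cells lacking CD43, and every group had been activated for 72 hours with IL-4 at 20 ng/mL, anti-IgM antibody at 10 ug/mL and CD40L at 5 ug/mL. The methods of the study name an anti-CD40 antibody where the labels name CD40L. No unstimulated or UPF1-deficient cells entered these comparisons, and the labels do not say whether the 3 libraries of a group came from separate mice or cultures. The methods call the points of plotted data biological replicates without naming these libraries, so the spread between them may be technical.

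Chemokine receptors and lipid receptors of this kind span the membrane, couple mostly to inhibitory G proteins and turn a gradient of ligand into directed movement, and a B cell changes its place in the spleen by changing which of them it carries. UPF1 is an RNA helicase that loads onto mRNA, and its phosphorylation by the kinase SMG1 recruits the decay adapter SMG5 and the endonuclease SMG6. In nonsense-mediated decay this follows termination of translation upstream of an exon junction or ahead of a long 3′ UTR.

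The annotated stop codon and its surroundings in 8 of the receptor mRNAs are shown because nonsense-mediated decay depends on where translation terminates. The study describes this decay as triggered at a premature stop codon, whereas the codons shown are the annotated ends of coding sequences. Each line gives the last 12 coding bases, the stop codon in capitals and the first 12 bases after it, 5′ to 3′ on the strand of the mRNA, from GENCODE M21 transcripts on GRCm38.
Cnr2 (chr4:135917642-135917668, plus strand): gtgaaaaccaccTAGgagccaggatcc
Cxcr5 (chr9:44513222-44513248, minus strand): ctcaccaccttcTAGatcccggaagtc
Ccr7 (chr11:99144946-99144972, minus strand): accttctccccgTAGggggctcccctg
S1pr4 (chr10:81498466-81498492, minus strand): gtccgcagcaccTAGagcttggaccag
S1pr1 (chr3:115711783-115711809, minus strand): aattcttcttccTAAagcctgaagaag
P2ry10 (chrX:107103433-107103459, plus strand): tcaatggttaacTAAaatgagaaaatt
Gpr183 (chr14:121954022-121954048, minus strand): tccaatggaaggTAAaggcacttggga
Cxcr4 (chr1:128588831-128588857, minus strand): tttcactccagcTAAcacttatgcaaa
Cnr2, Cxcr5, Ccr7 and S1pr4 end in TAG and the other members in TAA, and none ends in TGA, the stop codon of 51.7% of the 11867 tested genes with a complete coding transcript. In none of the 9 transcripts did an intron lie after the annotated stop codon, so none has an annotated exon junction downstream of this stop. Stop codons that follow upstream ATG codons inside the 5′ UTR are counted below.

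Input libraries held 19873687 to 24945286 counts, IgG libraries 17372510 to 18550508 and p-UPF1 libraries 23251890 to 24802119, and log2 levels of libraries of a group correlated across genes with r from 0.982 (IgG) to 0.997 (Input). Of the genes listed, 13129 passed the filter on low counts, all 9 receptors among them. As a check of the precipitation, Upf1 itself, Smg5, which encodes a decay adapter, and Gadd45b had log2 fold changes over IgG of 2.08, 2.62 and 2.98. Of 8 B cell markers, 8 exceeded 1 CPM (counts per 1000000 counts of the library) in Input, with a summed level of 5419 to 5478 CPM there, 4370 to 4566 CPM after IgG and 6766 to 6946 CPM after p-UPF1 precipitation. Its largest part was Fcer2a, with means of 2229.5, 1905 and 4403 CPM, while Cd79a had means of 269, 140.4 and 32.8 CPM and Cd79b 1229, 775 and 579.7 CPM. Of 8 T cell markers, whose sum was 31.8 to 33.9 CPM in Input, 14.2 to 19.2 CPM in IgG and 22.9 to 25.3 CPM in the p-UPF1 libraries, 2 exceeded 1 CPM in Input, namely Thy1 (means of 30.2, 15.2 and 16.3 CPM in the 3 groups) and Cd28 (1.99, 1.46 and 7.33 CPM). Of 6 monocyte and macrophage markers, whose sum was 128 to 139, 86.0 to 91.5 and 57.2 to 59.4 CPM, Adgre1 alone exceeded 1 CPM in Input (131 CPM) and Fcgr1 was at 0. In Input the defining T cell genes Cd3d, Cd3e and Cd3g stood at or below 0.308 CPM and the macrophage genes Lyz2 and Csf1r at or below 0.196 CPM, while neutrophil genes summed to at most 0.151 CPM with S100a8 and Ly6g at 0. Plasma cell markers, led by Xbp1 (254 CPM), summed to 275 to 281, 217 to 249 and 135 to 137 CPM, although Sdc1 had means of 3.87, 2.33 and 9.32 CPM and Prdm1 of 16.4, 22.0 and 9.39 CPM. The sum of 5 dendritic cell markers moved with the precipitation, with 38.7 to 39.0 CPM in Input, 40.5 to 45.5 CPM after IgG and 176 to 179 CPM after p-UPF1 precipitation. Most of it was Zbtb46, with means of 36.7, 41.6 and 176 CPM, while Flt3 had means of 1.72, 1.90 and 0.947 CPM. The part of these shifts in the receptor values was not tested.

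Levels below are CPM scaled by TMM factors (trimmed mean of M values), and groups are given as mean ± SD over 3 libraries. A log2 fold change (Log2FC) comes with its standard error (SE) and an adjusted P from the quasi-likelihood test of edgeR with Benjamini-Hochberg adjustment over all tested genes. An mRNA was called p-UPF1-bound as in the methods of the study, which ask for a Log2FC of 1 or more over IgG together with 2 or more over Input at an adjusted P under 0.05 in both. Comparisons with IgG and with Input share the p-UPF1 libraries and are given side by side. Being bulk libraries, they cannot tell fewer cells carrying an mRNA apart from less of it per cell.

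Of the 9 receptors, 7 were higher in p-UPF1 than in IgG (adjusted P under 0.05), a call that 40.4% of all tested genes shared, and Gpr183 and Cxcr4 were lower, as were 42.2% of all tested genes. Against Input, 6 were higher and 3 lower (P2ry10, Gpr183 and Cxcr4), beside 40.8% and 42.6% of all tested genes. A Log2FC of at least 1 over IgG was passed by 6 members and by 22.2% of all tested genes (4 members when scaled by library size alone or by upper-quartile factors, which took Ccr7 and S1pr1 below it), and one of at least 2 over Input by Cnr2 and Cxcr5 and by 6.31%. These 2 members met the full criterion for p-UPF1-bound mRNAs, which 6.25% of all tested genes met. Higher levels than in both controls were called for 6 members and 36.1% of all tested genes, and lower ones for 2 members and 37.4%. The members spread widely, from an 11.8-fold enrichment of Cnr2 over IgG to a 5.04-fold depletion of Cxcr4. Their median Log2FC was 1.10 over IgG and 0.58 over Input, where the median over all tested genes was -0.03 in both comparisons.

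**Figure D1:**
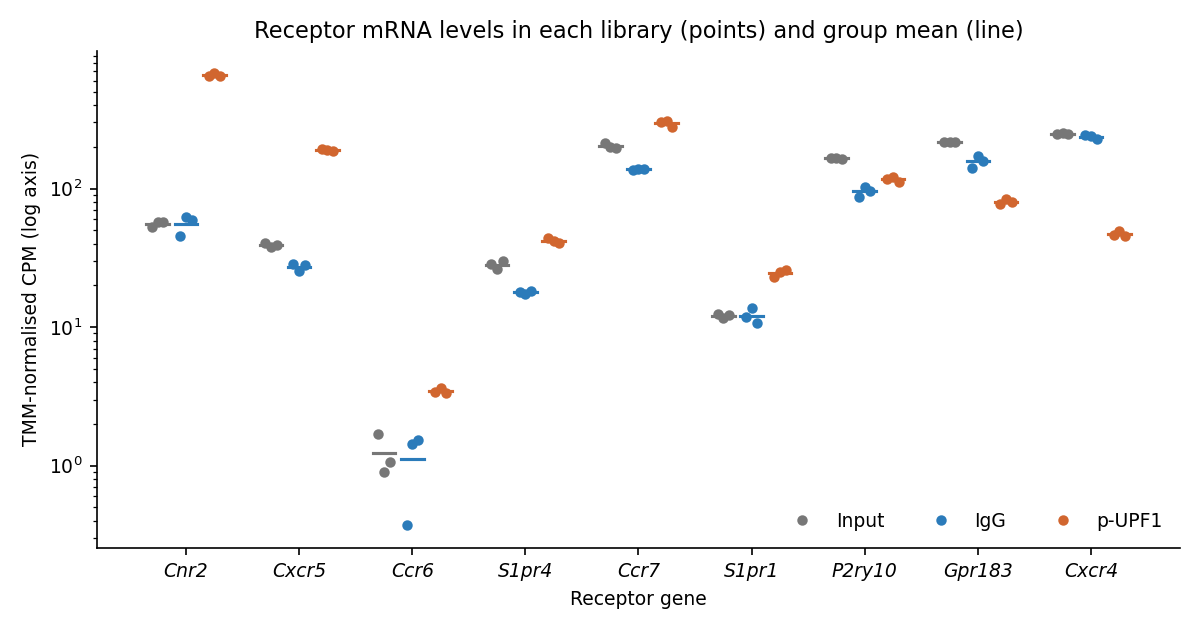
TMM-normalised CPM on a log axis of the 9 receptor mRNAs in each Input, IgG and p-UPF1 library (points, 3 per group) with the group mean (line), genes ordered by Log2FC over IgG. The p-UPF1 points of Cnr2 (647 to 678 CPM) stand far above its other 6 points, and those of Cxcr4 (45.7 to 49.0 CPM) far below.

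Cnr2 encodes the cannabinoid receptor CB2, through which endocannabinoids act on marginal zone B cells, and its gene lies at chr4:135895189-135920219 on the plus strand of GRCm38. Cnr2 stood at 52.6, 57.4 and 57.1 CPM in Input libraries A, B and C, at 45.7, 61.8 and 59.3 CPM in the IgG libraries and at 649.9, 678 and 647 CPM in the p-UPF1 libraries. Input and IgG overlapped, and every p-UPF1 library lay more than 10 times above every other library. The counts behind these levels ran from 860 in IgG library A to 15426 in p-UPF1 library A. The Log2FC over IgG was 3.56 ± 0.08 (SE), with an adjusted P of 3.06e-16, and that over Input was 3.56 ± 0.08 (SE), with an adjusted P of 2.35e-16, and these changes exceeded those of 99.7% and 99.9% of all tested genes. The Log2FC of IgG over Input was 0.00 ± 0.08 (SE, adjusted P = 0.996). The genes with the most similar profile over the 9 libraries were Vhl, which encodes a subunit of a ubiquitin ligase, and Kctd7, at Euclidean distances of 0.32 and 0.35 in log2 CPM centred on Input.

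Cxcr5, the receptor for CXCL13 that takes B cells into follicles, was the other p-UPF1-bound member (chr9:44511787-44526444, minus strand). Its levels were 40.3, 38 and 39.1 CPM in Input A to C, 28.4, 25.4 and 28.2 CPM in the IgG control and 192, 189 and 187 CPM in p-UPF1. The groups did not overlap, and IgG was the lowest of the 3. Over IgG its Log2FC was 2.79 ± 0.05 (SE), with an adjusted P of 3.98e-17, and that over Input was 2.27 ± 0.05 (SE), with an adjusted P of 1.76e-16. IgG lay below Input by a Log2FC of -0.52 (SE 0.06, adjusted P = 1.22e-06), so the change over IgG exceeded that over Input. The gene shares 120 exon bases with Bcl9l on the opposite strand, out of 2638 exon bases, and whether the counting used strand is not given for these libraries. Bcl9l had a Log2FC of 0.56 over IgG and 0.10 over Input at a mean of 38.1 CPM.

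Ccr7, the receptor for CCL19 and CCL21 that draws B cells to the border with the T cell zone, was abundant in all groups (chr11:99144199-99155077, minus strand). It was measured at 212, 200.1 and 195 CPM in Input A to C, at 137, 139 and 138 CPM in the IgG control and at 303, 309 and 276 CPM in p-UPF1. The 3 groups were separate, with IgG lowest and p-UPF1 highest. The Log2FC over IgG was 1.10 ± 0.05 (SE), with an adjusted P of 1.66e-12, past the minimum of 1, but that over Input was 0.55 ± 0.05 (SE), with an adjusted P of 1.19e-08, short of the minimum of 2. The value over IgG was below 1 with library size alone (0.94) and with upper-quartile factors (0.96). Between IgG and Input, Ccr7 differed by -0.55 on the log2 scale (adjusted P = 1.47e-07).

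Cxcr4, the receptor for CXCL12 that serves homing to bone marrow and the germinal centre dark zone, moved in the opposite direction to Cnr2 and Cxcr5 (chr1:128588199-128592299, minus strand). It read 247, 250.03 and 249 CPM in Input A to C, 244, 238 and 228 CPM in the IgG control and 46.2, 49.0 and 45.7 CPM in p-UPF1. All p-UPF1 libraries lay below all others, and IgG lay close under Input. Over IgG its Log2FC was -2.33 ± 0.04 (SE), with an adjusted P of 5.67e-17, and that over Input was -2.40 ± 0.04 (SE), with an adjusted P of 2.76e-17, and only 3.91% and 6.17% of all tested genes had values as low or lower. The difference between IgG and Input was -0.07 (adjusted P = 0.147), which passed the threshold when IgG library A was left out (-0.10) and turned in sign under 5 other settings, reaching 0.04 with library size alone. The nearest profiles belonged to Serbp1 and Pabpc1, the latter the gene of the cytoplasmic poly(A)-binding protein, at distances of 0.27 each.

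Ccr6, the receptor for CCL20, was the least abundant member (chr17:8236041-8258519, plus strand). It had 42, 18 and 21 counts in Input A to C, 7, 28 and 30 counts in the IgG control and 81, 81 and 74 counts in p-UPF1, or 1.70, 0.908 and 1.07, then 0.372, 1.43 and 1.54, then 3.41, 3.66 and 3.35 CPM. The p-UPF1 libraries were the highest, and Input and IgG overlapped. The Log2FC over IgG was 1.63 ± 0.34 (SE), with an adjusted P of 3.74e-04, and that over Input was 1.47 ± 0.33 (SE), with an adjusted P of 6.65e-04, with SEs more than 3 times those of any other member. IgG library A decided part of the size, since the Log2FC over IgG was 1.22 without it and 1.93 without IgG library C.

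Gpr183, also called EBI2, senses oxysterols and moves activated B cells to the outer follicle (chr14:121952331-121965193, minus strand). Its levels were 217, 218 and 217 CPM in Input A to C, 141, 172 and 158 CPM in the IgG control and 77.9, 84.2 and 79.5 CPM in p-UPF1. The groups fell in the order Input, IgG, p-UPF1 without overlap. Over IgG its Log2FC was -0.96 ± 0.06 (SE), with an adjusted P of 1.86e-10, and that over Input was -1.43 ± 0.06 (SE), with an adjusted P of 6.96e-13. Gpr183 lies in a stretch where Ubac2 runs on the opposite strand, but the annotated exons of the genes share 0 bases.

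S1pr1, the receptor that lets lymphocytes leave along a sphingosine-1-phosphate gradient, rose about as much over each control (chr3:115710433-115715055, minus strand). It stood at 12.4, 11.6 and 12.3 CPM in Input A to C, at 11.7, 13.8 and 10.6 CPM in the IgG control and at 23.0, 24.8 and 26.0 CPM in p-UPF1. Input and IgG overlapped below the p-UPF1 libraries. The Log2FC over IgG was 1.03 ± 0.10 (SE), with an adjusted P of 3.58e-08, and that over Input was 1.02 ± 0.09 (SE), with an adjusted P of 3.05e-08. The value over IgG stood close to the minimum of 1 and ran from 0.86 with library size alone to 1.15 without IgG library B, with 0.99 when p-UPF1 library C and 0.94 when IgG library C was left out.

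S1pr4, a sphingosine-1-phosphate receptor found mainly on blood cells, had a different relation to its controls (chr10:81497745-81500137, minus strand). Its levels were 28.5, 26.2 and 30.01 CPM in Input A to C, 18.0, 17.2 and 18.3 CPM in the IgG control and 44.0, 41.8 and 40.5 CPM in p-UPF1. The groups did not overlap, with IgG lowest. Over IgG its Log2FC was 1.24 ± 0.07 (SE), with an adjusted P of 4.14e-11, and that over Input was 0.58 ± 0.07 (SE), with an adjusted P of 3.92e-07. IgG lay below Input by -0.66 (adjusted P = 1.25e-06).

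P2ry10, a receptor for lysophosphatidylserine, was the only member whose p-UPF1 libraries lay between the controls (chrX:107088492-107104974, plus strand). It read 167, 167 and 164 CPM in Input A to C, 86.8, 103 and 96.4 CPM in the IgG control and 118, 121 and 112 CPM in p-UPF1. The 3 groups were separate, and the sign of the change therefore depended on the control. The Log2FC over IgG was 0.30 ± 0.05 (SE), with an adjusted P of 1.09e-04, and that over Input was -0.50 ± 0.05 (SE), with an adjusted P of 1.73e-07, and IgG lay 0.80 below Input on the log2 scale (Log2FC -0.80, adjusted P = 9.18e-09). Scaling by library size alone brought its change over IgG to 0.13, more than 1.5 times smaller but still past the threshold (adjusted P = 0.0228). Its close relative P2ry10b, a neighbour in sequence whose reads may be shared, was lower in p-UPF1 than in IgG (Log2FC -1.03) and than in Input (-2.01) at a mean of 4.95 CPM, and it was named after its values were seen.

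Across the members, all p-UPF1 libraries lay above all 6 control libraries for Cnr2, Cxcr5, Ccr6, S1pr4, Ccr7 and S1pr1, as for 37% of all tested genes, and below them for Gpr183 and Cxcr4, as for 37.6%. IgG was lower than Input for 5 members (Ccr7, Cxcr5, Gpr183, P2ry10 and S1pr4), a call shared by 34.7% of all tested genes. The number of members higher in IgG than in Input was 0 at an adjusted and at an unadjusted P under 0.05 by edgeR, and 0 at every alternative setting, while 18.2% of all tested genes were by edgeR. For Cnr2, S1pr1, Ccr6 and Cxcr4 the Log2FC of IgG over Input lay between -0.16 and 0.00 and did not pass the test. The members that were lower in IgG than in Input therefore had a higher Log2FC over IgG than over Input.

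The order of the Log2FC over IgG was Cnr2, Cxcr5, Ccr6, S1pr4, Ccr7, S1pr1, P2ry10, Gpr183 and Cxcr4. Neighbours were compared by the 95% interval of their difference, with the errors of both genes taken as independent. Cnr2 exceeded Cxcr5 by 0.77 (0.58 to 0.96), S1pr1 exceeded P2ry10 by 0.73 (0.52 to 0.95) and Gpr183 exceeded Cxcr4 by 1.37 (1.22 to 1.52). Ccr6, S1pr4, Ccr7 and S1pr1 could not be ordered, since the intervals were -0.30 to 1.08 for Ccr6 against S1pr4, -0.03 to 0.30 for S1pr4 against Ccr7 and -0.14 to 0.28 for Ccr7 against S1pr1. Over Input the order was the same at the top and the bottom, but S1pr1 lay 0.45 above S1pr4 (0.22 to 0.67).

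**Figure D2:**
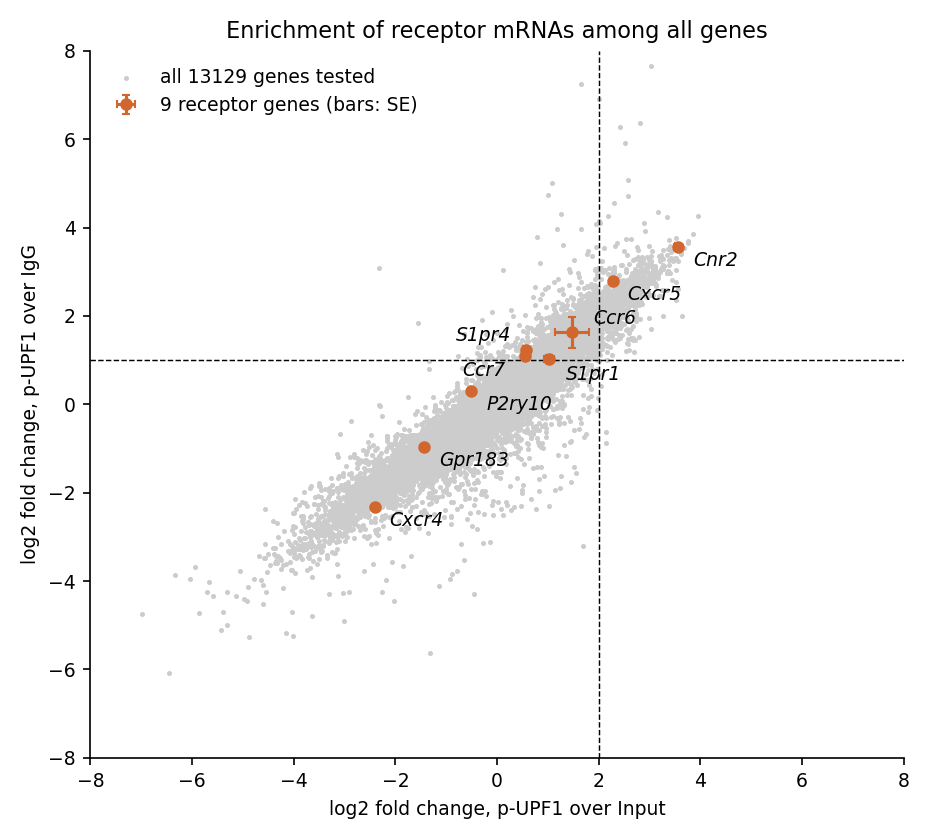
Log2FC of p-UPF1 over IgG against that over Input for 13129 tested genes (grey) and the 9 receptors (orange, bars give the SE), with dashed lines at the minimum of 1 over IgG and 2 over Input for a p-UPF1-bound mRNA. Cnr2 (3.56 and 3.56) and Cxcr5 (2.79 and 2.27) lie past both lines, and Ccr6, S1pr4, Ccr7 and S1pr1 lie past the first alone.

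Because these changes differ in sign, the make-up of the receptor mRNAs in the p-UPF1 precipitate was unlike that of the lysate. Of all counts on the 9 genes, Cnr2 held 5.74% ± 0.313 in Input, 7.49% ± 0.925 in the IgG control and 45.1% ± 0.545 in p-UPF1 (SD, n = 3). Cxcr5 went from 4.03% in Input, by way of 3.70% in the IgG control, to 12.99% in p-UPF1. These shares do not depend on how libraries are scaled. The opposite held for Cxcr4, with 25.6% in Input, 32.0% in the IgG control and 3.22% in p-UPF1, and for Gpr183, with 22.4%, 21.1% and 5.53%. Ccr7 kept a share of 20.8% in Input, 18.7% in the IgG control and 20.3% in p-UPF1, although its level rose (Log2FC 1.10 over IgG and 0.55 over Input). A share depends on all 9 genes, so a steady share is not a steady level.

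Levels per kb of exon allow the genes to be ranked within a group. In Input, Cxcr4 was highest at 137 ± 0.962 CPM per kb, followed by Ccr7 (102), Gpr183 (73.9), P2ry10 (57.5), Cxcr5 (14.8), Cnr2 (12.8), S1pr4 (11.8), S1pr1 (3.995) and Ccr6 (0.587). Most neighbours were separate in all libraries, but Cnr2 (12.1 to 13.2) and S1pr4 (10.9 to 12.5) overlapped. In IgG the first 4 places were the same, Cnr2 (10.5 to 14.3) and Cxcr5 (9.61 to 10.8) overlapped, and S1pr4, S1pr1 and Ccr6 followed. In p-UPF1, Cnr2 (152 ± 3.90) and Ccr7 (149.9 ± 8.99) led with overlapping libraries, followed by Cxcr5 (71.8), P2ry10 (40.6), Gpr183 (27.4), Cxcr4 (25.9), S1pr4 (17.6), S1pr1 (8.12) and Ccr6 (1.66). Cnr2 thus rose from place 6 to place 1 and Cxcr4 fell from place 1 to place 6, with Gpr183 (26.5 to 28.6) and Cxcr4 (25.2 to 27.0) overlapping in p-UPF1.

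**Figure D3:**
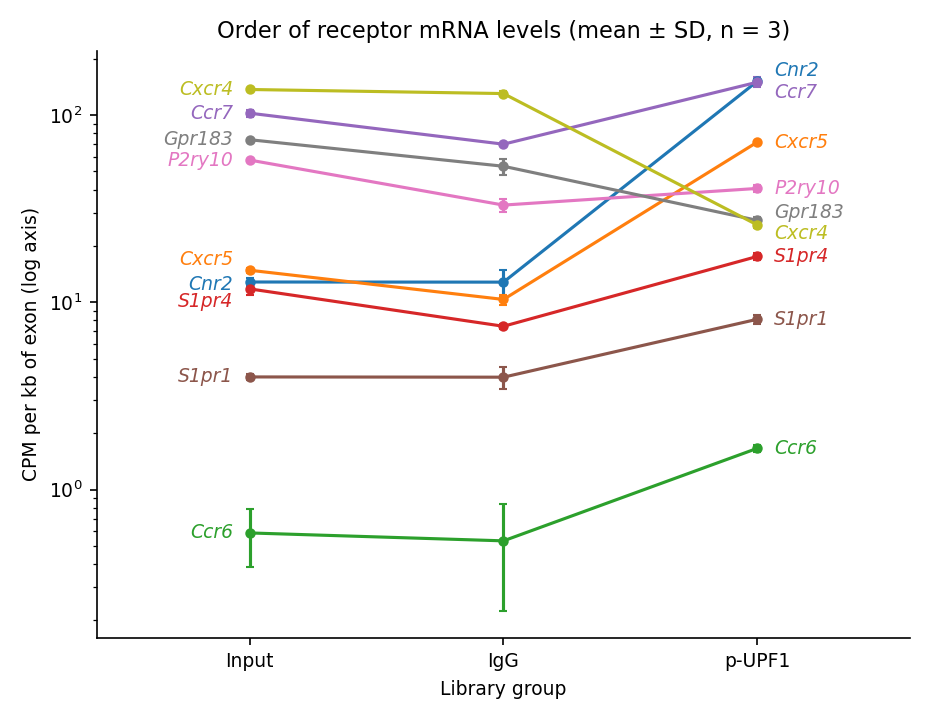
Mean CPM per kb of exon (log axis, bars give the SD of 3 libraries) of each receptor mRNA in Input, IgG and p-UPF1, with a line joining the means of a gene. Cnr2 climbs from 12.8 to 152 and Cxcr4 drops from 137 to 25.9 between Input and p-UPF1, while S1pr4, S1pr1 and Ccr6 keep the last places.

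Pairs of receptors with linked roles show the same shift as a ratio of counts, which no scaling can move (pairs chosen after the values were seen, given without a test). Cxcr5 and Cxcr4 place B cells in the light and the dark zone of the germinal centre. Cxcr5 over Cxcr4 was 0.158 ± 0.00574 in Input, 0.116 ± 0.00845 in the IgG control and 4.04 ± 0.153 in p-UPF1. Ccr7 over Gpr183, receptors that pull toward the T zone border and the outer follicle, was 0.930 ± 0.0386 in Input, 0.886 ± 0.0806 in the IgG control and 3.68 ± 0.211 in p-UPF1. For the sphingosine-1-phosphate receptors, S1pr4 over S1pr1 was 2.33 ± 0.0917, 1.499 ± 0.240 and 1.72 ± 0.177, where IgG and p-UPF1 overlapped.

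Coding sequences of the members ran from 987 bases in P2ry10 to 1161 in S1pr4, against a median of 1404 over all genes, and 6 members (Cnr2, Ccr6, S1pr1, S1pr4, Gpr183 and P2ry10) hold their coding sequence in 1 exon, as do 5.39% of genes. Cxcr4 and Cxcr5 hold it in 2 exons and Ccr7 in 3. Genes with a single coding exon had a median Log2FC over IgG of -0.41, and 7.20% of them were p-UPF1-bound, beside 6.36% of all genes with a transcript. Cnr2, which was p-UPF1-bound, and Gpr183, which was lower than both controls, share this structure. The members that end in TAG (Cnr2, Cxcr5, Ccr7 and S1pr4) were higher in p-UPF1 than in both controls, and of those that end in TAA, Ccr6 and S1pr1 were higher and Gpr183 and Cxcr4 lower, and P2ry10 lay between the controls. Over all genes the median Log2FC over IgG was -0.19 for TAA, 0.06 for TAG and 0.10 for TGA, and 4.40%, 6.02% and 7.47% were bound.

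The 3′ UTR was longest in Cnr2 (2551 bases, longer than in 82.9% of genes), followed by P2ry10 (1527), Gpr183 (1483), Cxcr5 (1447), S1pr1 (1362), Ccr7 (762), S1pr4 (731), Cxcr4 (644) and Ccr6 (59). The Log2FC over IgG of P2ry10, Gpr183 and Cxcr5, which follow each other in this order, were 0.30, -0.96 and 2.79. The lengths depend on the annotation, since Gpr183 has 1703 bases in its curated RefSeq transcript, and Ccr6 has 73 bases in 7 curated and 1451 bases in 9 predicted RefSeq transcripts. Over the 9 members the Spearman correlation of 3′ UTR length with Log2FC over IgG was 0.15 (0.32 with the longest 3′ UTR in RefSeq, chosen after seeing the data), and over 11867 genes it was 0.31 (points share the libraries and differ in expression, so no P is given).

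The GC content of the 3′ UTR was 31.4% in P2ry10, 34.0% in Cxcr4, 40.9% in Gpr183 and 41.4% in S1pr1, and 44.1% in Ccr6, 49.0% in Cnr2, 49.7% in Ccr7, 50.2% in Cxcr5 and 55.8% in S1pr4. Over the 9 members its Spearman correlation was 0.73 with Log2FC over IgG and 0.60 with Log2FC over Input, and over 11720 genes that over IgG was 0.31, again as a description. With curated RefSeq transcripts, where the 3′ UTR of Ccr6 holds 35.6% GC, the members gave 0.60 over IgG and 0.50 over Input. In the 24.7% of genes with the lowest 3′ UTR GC (at most 39.1%), where P2ry10 and Cxcr4 fall, the median Log2FC over IgG was -0.55 and 0.887% of genes were p-UPF1-bound. In the 24.7% with the highest (above 50.4%), where S1pr4 falls, the median was 0.45 and 10.8% were bound.

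**Figure D4:**
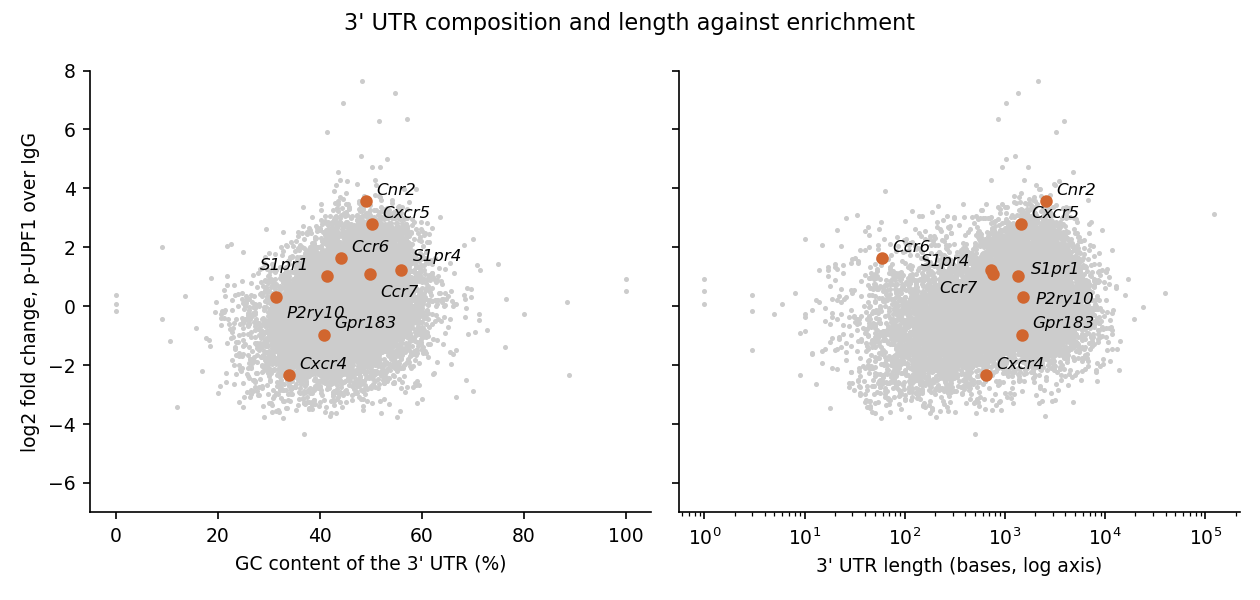
Log2FC of p-UPF1 over IgG against the GC content (left, percent) and the length (right, bases, log axis) of the 3′ UTR, for all tested genes with a transcript (grey) and the 9 receptors (orange). Cnr2 (49.0% GC) and Cxcr5 (50.2%) stand highest, while Ccr7 (49.7%) and S1pr4 (55.8%) of similar or higher GC stand at 1.10 and 1.24, and P2ry10 (31.4%) stands above Cxcr4 (34.0%) and Gpr183 (40.9%).

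The pentamer ATTTA, the core of AU-rich elements that bind decay factors, was searched on the mRNA strand of the 3′ UTR, and 65.1% of the 11867 genes hold at least 1. P2ry10 holds 4, Cnr2 3, Gpr183 2, Cxcr4 and S1pr1 1 each and the others 0, where the predicted longer 3′ UTR of Ccr6 would hold 2. The longer and stricter AU-rich motif TTATTTA followed by A or T at both next bases occurred 0 times in every member, where the median over all genes was 0. The sites of the most and the least enriched member are shown because both ends of the order hold the motif, with ATTTA in capitals and 10 bases on either side (GRCm38).
Cnr2 site 1 (chr4:135918783-135918807, plus strand): actcttaaacATTTAatacttttgc
Cnr2 site 2 (chr4:135919085-135919109, plus strand): acgcttagtgATTTAgactgtattt
Cnr2 site 3 (chr4:135919977-135920001, plus strand): ctcaaaataaATTTAagttacaatt
Cxcr4 site (chr1:128588662-128588686, minus strand): gtttgacttaATTTAtataaatact
Counted from the first base after the stop codon, the motif starts at bases 1137, 1439 and 2331 in Cnr2 and at base 167 in Cxcr4. Genes with the motif had a median Log2FC over IgG of 0.09 and genes without it -0.13. Upstream ATG codons in the 5′ UTR, which 49.8% of genes have, numbered 8 in P2ry10, 6 in S1pr4, 2 in Cxcr5 and Gpr183, 1 in Cnr2, Ccr6 and S1pr1 and 0 in Ccr7 and Cxcr4. Each of these ATG codons was followed by an in-frame stop codon inside the 5′ UTR, except in S1pr4, where 4 were.

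Other genes of homing and G protein signalling were taken from 7 lists with 129 tested genes, of which p-UPF1 exceeded IgG for 62 (48.1%, beside 40.4% of all tested genes) and lay below it for 49 (37.98%, beside 42.2%), and 9 were p-UPF1-bound (6.98%, beside 6.25%). The 47 listed genes that did not pass the filter had at most 20 counts in any library. Of 19 other chemokine receptors 6 were tested, and 3 were higher and 1 lower than IgG with a median Log2FC of 1.35. Ccr4, the receptor for CCL17 and CCL22, was p-UPF1-bound, with 27.2 ± 1.24 CPM in Input, 24.0 ± 0.970 in the IgG control and 169 ± 5.83 in p-UPF1 (Log2FC over IgG 2.82, over Input 2.64).

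Of 44 other receptors for lipids, nucleotides and related ligands 26 were tested, with 14 higher and 10 lower than IgG and a median of 0.62. S1pr2, the sphingosine-1-phosphate receptor that holds B cells in the germinal centre, was p-UPF1-bound with Log2FC of 2.97 over IgG and 2.66 over Input, and rose from 6.52 ± 1.01 CPM in IgG to 51.2 ± 0.554 CPM. It thus exceeded both S1pr1 (1.03) and S1pr4 (1.24). The prostacyclin receptor Ptgir (2.55 and 2.24) and the histamine receptor Hrh2 (2.0 and 2.18) were bound as well, and the adenosine receptor Adora2a rose by 1.69 and 1.52. The proton-sensing receptor Gpr65 (-1.22 over IgG, -1.66 over Input), P2ry12 (-1.32 and -1.63), Gpr18 (-1.49 and -2.33) and the lysophosphatidic acid receptor Lpar6 (-2.51 and -2.52) were the lowest named members of this list, all lower than both controls.

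Among ligands and ligand enzymes, 14 of 23 were tested, 11 were higher and 0 lower than IgG at an adjusted P under 0.05 by edgeR (0 lower at an unadjusted P under 0.05 as well), and the median was 0.69. Cxcl13, Ccl19, Ccl20 and Ccl21a had no count in any library. The sphingosine-1-phosphate phosphatase Sgpp1 rose by 1.48 over IgG and 0.84 over Input, and the lyase Sgpl1 by 0.58 and 0.68. Plpp3, a lipid phosphate phosphatase, met the bound criterion (2.11 and 2.05) at a mean of 1.88 CPM and was named after its values were seen. It lost that call with upper-quartile factors, with a prior count of 2 and without p-UPF1 library A. Faah, which degrades endocannabinoids, rose by 0.81 over IgG, Abhd6 by 0.79, Sphk2 by 0.50 and Daglb, which makes the endocannabinoid ligand of Cnr2, by 0.18, while Abhd12 was 0.31 above IgG but below Input (-0.24, adjusted P = 0.00455, a call lost without the low-count filter and with a TMM reference from IgG). The call of Abhd12 over IgG was lost under scaling by library size alone (0.15). That of Daglb was lost under 9 alternatives, with 0.01 for library size alone and 0.14, 0.17 and 0.17 without p-UPF1 library B or C or IgG library C.

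Of 27 G protein subunits and their chaperones 22 were tested, with 9 higher, 11 lower and 0 p-UPF1-bound by edgeR, and the median was -0.62. Gnai3 and Gnai2, inhibitory alpha subunits of the kind through which most of the 9 receptors signal, moved apart. Gnai3 rose from 288 ± 17.2 CPM in IgG to 913 ± 26.8 CPM in p-UPF1 (Log2FC 1.66 over IgG, SE 0.05, and 1.48 over Input), while Gnai2 fell from 332 ± 3.47 to 135 ± 0.914 CPM (-1.30, SE 0.04, and -1.88). Gna12 rose by 1.67 over IgG, and the chaperones Ric8b and Ric8a by 1.72 and 1.38. Ric8b was called p-UPF1-bound with DESeq2, with a TMM reference from IgG, without the low-count filter and without p-UPF1 library A. Gna11 (-1.62 over IgG, -0.26 over Input), Gnas (-1.66 and -2.34) and the gamma subunit Gng5 (-3.29 and -4.03) were lower than both controls, Gna11 over Input with an adjusted P of 0.0157, a call lost under 5 alternatives, among them DESeq2 (-0.21) and leaving out Input library C (-0.21).

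Of 21 genes that shut receptors off, 20 were tested, 11 were higher and 5 lower than IgG, and the median was 0.52. Of its 20 tested genes 4 were p-UPF1-bound, beside 6.25% of all tested genes. These are 4 of its 9 tested RGS genes, a family singled out after the values were seen. RGS proteins speed up GTP hydrolysis on alpha subunits and so end receptor signals. Rgs18 did not pass the filter on low counts. Rgs1, which dampens chemokine responses of B cells, stood at 7.76 ± 0.492 CPM in Input, 7.60 ± 1.08 CPM after IgG and 79.0 ± 3.75 CPM after p-UPF1 precipitation (3.38 over IgG, 3.35 over Input). Rgs16 (3.05 and 3.26), Rgs2 (2.82 and 2.73) and Rgs3 (2.57 and 2.74) were bound as well. The other tested RGS genes, named after their values were seen except Rgs19, were not bound. They ran from Rgs14 (1.12 and 0.77) and Rgs12 (1.05 and 0.90) through Rgs13 (-0.45 over IgG, adjusted P = 0.1995, and -1.19 over Input) to Rgs10 (-2.46 and -2.92), the lowest tested gene of the list. The arrestin Arrb2 (-0.30), the receptor kinase Grk2 (-0.42) and Cd69 (-1.10), whose protein removes S1pr1 from the surface, were lower than IgG, as was Rgs19 (-0.18), whose call was lost under 5 alternatives, among them DESeq2 (-0.16) and leaving out p-UPF1 library C or IgG library B (-0.12 and -0.13).

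Of 27 migration effectors 27 were tested, with 8 higher, 16 lower and 0 p-UPF1-bound by edgeR (Rassf5 without the low-count filter), and a median of -0.41. The Rap1 effector Rassf5 (2.07 over IgG, 1.87 over Input), Pik3r5 (1.56 and 1.59), the Rac exchange factor Prex1 (1.34 and 1.06) and Wipf1 (1.24 and 0.72) rose. The actin regulator Coro1a (-1.24 and -1.65), the Rap1 effector Apbb1ip (-1.12 and -1.85) and the GTPases Rap1a (-1.36 and -1.84) and Rap1b (-1.35 and -1.23) fell below both controls. Of 15 adhesion molecules and their regulators 14 were tested, with 6 higher, 6 lower and 0 bound by edgeR (Icam1 without the filter or with a TMM reference from IgG) and a median of 0.05. Icam1 (2.04), Pecam1 (1.40), Itga4 (0.90) and Itgal (0.47) rose over IgG, and Itgb1 (-0.70), the transcription factors Foxo1 (-0.76) and Klf2 (-1.13), the latter an activator of S1pr1, and Cd47 (-1.48) were lower than IgG. Except for Rgs13, every change over IgG named in the lists had an adjusted P under 0.05 by edgeR, and the largest of them was 0.0318, for Daglb. Hrh2, P2ry12, Gpr18, Lpar6, Abhd6, Sphk2, Abhd12, Ric8b, Ric8a, Gnas, Rgs3, Rassf5, Prex1, Wipf1, Apbb1ip, Itga4 and Cd47 overlap a gene on the opposite strand, so their counts may be uncertain if strand was not used. Whether their exons share bases with that gene, which was checked for the members, is not given here.

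**Figure D5:**
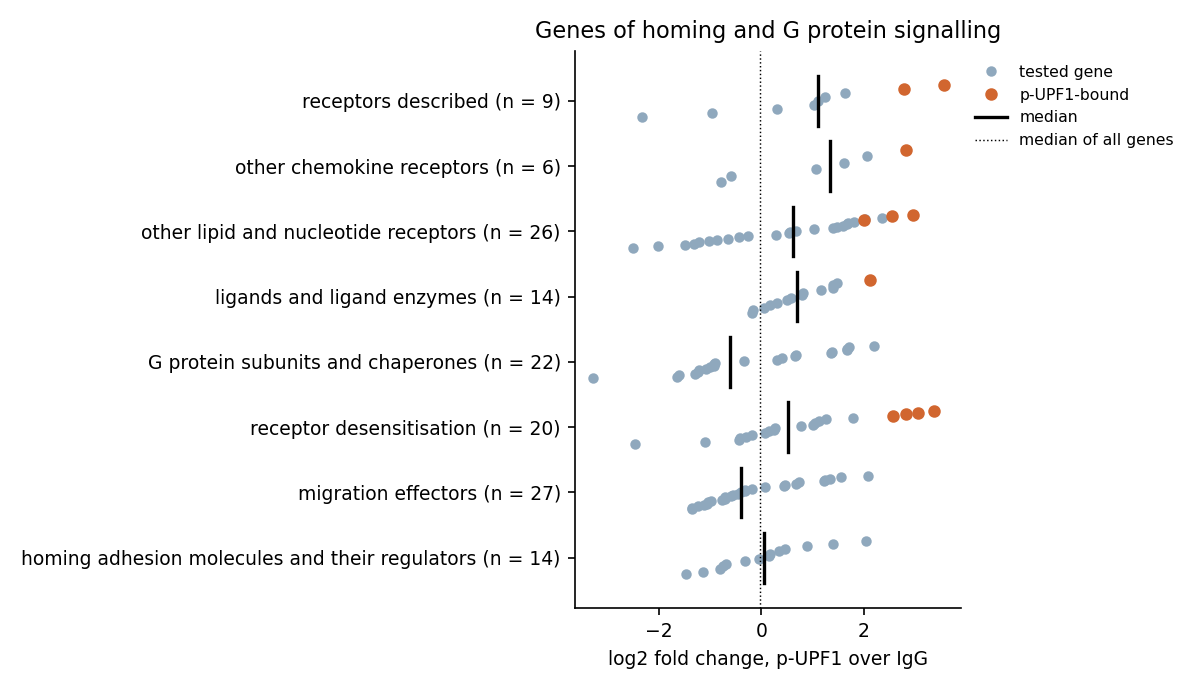
Log2FC of p-UPF1 over IgG of every tested gene in the receptor set and in 7 lists of related genes (points, orange where p-UPF1-bound), with the list median (bar) and the median of all tested genes (dotted line). The RGS genes reach 3.38 in the list of receptor desensitisation, and medians run from -0.62 for G protein subunits to 1.35 for other chemokine receptors.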

How the data were processed

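RNA of activated splenic B cells was measured in 3 Input, 3 IgG and 3 p-UPF1 libraries. The deposited values are raw counts of reads per NCBI Gene number, 1 column per library. The submitters' processing notes name cutadapt, HISAT2, featureCounts and mm10, with no versions. The kit marks strand, but whether counting used it is not given in the sources used here, so overlapping genes on opposite strands may share counts. The counts carry no molecular identifiers, so amplified copies count separately. Columns carried letters, where the labels number the replicates, so each was assigned to its group alone. By the methods, a small part of the lysate was kept as Input and the rest went to either antibody. Libraries of the 3 groups may therefore be paired by lysate, but the labels do not say which share one. The SE and adjusted P given here leave out any such pairing.

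Symbols came from RefSeq for 25275 of 27179 identifiers, and identifiers without a symbol held 0.379% of counts. Gene positions follow RefSeq (GRCm38.p6), and transcript features follow GENCODE M21, for the transcript with the longest coding sequence (90.4% of tested genes), with RefSeq 3′ UTRs as an alternative for the members. filterByExpr at its defaults (minimum count 10, minimum total 15) kept 13129 genes with 99.9% of counts. Counts were TMM-scaled and fitted over all 9 libraries without covariates by edgeR 4.0.16 in R 4.3.3 (glmQLFit and glmQLFTest, two-sided, 6 residual degrees of freedom, prior count 0.125). TMM assumes that most genes do not change, and the default reference was a p-UPF1 library. Alternatives used other scalings, filters and thresholds, DESeq2 1.42.0, limma 3.58.1 (voom), each library left out and, chosen after seeing the data, a block on the column letter. The fit was tested on simulated counts in which few genes changed, as many up as down. That test does not cover data in which most genes change. The 7 lists named in the text held other chemokine receptors, other lipid and nucleotide receptors, ligands and ligand enzymes, G protein subunits, desensitisation genes, migration effectors and adhesion genes. From each list, up to 4 genes with the highest and 4 with the lowest Log2FC over IgG at a mean of at least 5 CPM were named, and exceptions are marked in the text. Some items within this rule are not reported here. The members and lists were chosen with earlier results of these data known, and no list was tested as a set.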

Additional observations from a re-analysis of the deposited data

How the results depend on the processing

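Over 23 alternatives, 9 of which left out 1 library each, every member kept its direction and an adjusted P under the threshold over IgG and over Input, and in each of these and by glmTreat the members called p-UPF1-bound were Cnr2 and Cxcr5 alone. The fold minimum of 1 over IgG was less stable: 6 members passed it as reported, 4 with library size alone or upper-quartile factors, 5 with a TMM reference from Input and 5 to 6 with each library left out. The reference of the scaling matters, since p-UPF1 libraries have no external standard: scaling by library size alone moved the median Log2FC of all genes over IgG from -0.03 to -0.19. The number of list genes called p-UPF1-bound rose from 9 to 14 with no low-count filter, where that over all genes rose from 820 to 1088, and was 8 to 12 under the other alternatives.

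Signs turned for IgG over Input alone, in 4 members whose values were near 0. Cnr2 (0.00 as reported) gave -0.00751 with limma-voom and -0.0882 to 0.115 with each library left out. Ccr6 (-0.16) ranged from -0.469 to 0.233 and S1pr1 (-0.01) from -0.122 to 0.0697 with each library left out. Cxcr4 (-0.07) gave 0.0435 with library size alone, 0.0345 with a TMM reference from Input, 0.0280 with one from IgG, 0.0160 without the filter and 0.0347 with only the 2 groups compared. S1pr1 gave 0.1096 with library size alone, 0.0248 with RLE size factors, 0.0639 with upper-quartile factors, 0.101 with a TMM reference from Input, 0.0943 with one from IgG, 0.0826 without the filter, 0.00476 at 1 CPM or more in 3 libraries, 0.0211 with DESeq2 and 0.101 with only the 2 groups compared. The cause was not tested.

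A replicate block on the letter of the count columns, chosen after seeing the data, left 2 members p-UPF1-bound, 7 higher and 2 lower than IgG, and changed no call of a named gene; the IgG over Input value of Cnr2 near 0 became -0.00590. Deviations of libraries with the same letter correlated at -0.00510 to 0.0542, none over 0.1, though in 7 of 9 comparisons the same letter gave the highest value, and the labels number the replicates instead. Ccr6 had 81 counts or fewer per library, with 7, 28 and 30 in IgG, and its values have the largest errors of the members.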
